A study of Mus musculus with 12 samples.

Results

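Nonsense-mediated decay (NMD) is the cytoplasmic pathway that degrades mRNAs whose translation ends at a premature stop codon, together with a set of normal mRNAs. UPF1, an RNA helicase, is its central factor, and a cycle of UPF1 phosphorylation and dephosphorylation drives it. In fully grown oocytes and zygotes transcription is low or absent, and the RNA pool is largely maternal, so that RNA decay shapes it strongly. LSM1, the protein studied here, belongs to another branch of cytoplasmic decay: it is a subunit of the LSM ring that binds deadenylated mRNAs and promotes the removal of their cap.

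The RNAs of 9 NMD factors (Upf1, Upf2, Upf3a, Upf3b, Smg1, Smg5, Smg6, Smg8 and Smg9) were examined out of 25091 genes and repeats. They were chosen by name as the core and regulatory factors of the pathway, and the estimated counts of their RefSeq transcripts were summed by gene symbol in each of 12 libraries. Every one of the 9 passed the filter on low counts in both experiments. Upf1 had 2 RefSeq transcripts in the quantification, and each of the other 8 had 1.

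Total RNA-seq compared zygotes given Lsm1 siRNA (Lsm1_KD) with zygotes given scramble siRNA (Ctrl), with 2 libraries each, to ask which RNAs depend on LSM1. RIP-seq compared the RNA pulled down on anti-FLAG beads (IP) with the RNA of the lysate (Input), from zygotes given Lsm1_3XFlag mRNA (FLAG) or untagged Lsm1 mRNA (Ctrl), again with 2 libraries in each of the 4 groups, to ask which RNAs LSM1 binds. By the labels, all zygotes came from B6D2F1 females 8 to 10 weeks old. These were superovulated with 7 IU PMSG and, 48 h later, 5 IU hCG, then mated, with collection 18 to 20 h after hCG. The methods of the paper give another age range and other hormone doses. The labels describe injection into zygotes, while the scheme in the paper shows siRNA injection into GV oocytes, then maturation and fertilization in vitro. Which was used for the RNA-seq is not settled by either. IgG appears in the titles of the Ctrl RIP libraries, although untagged Lsm1 mRNA is what their treatment field gives. Each library is a pool of embryos, in which fewer embryos with an RNA and less RNA per embryo cannot be told apart. The paper describes the libraries of a group as biologically independent, and the p-values measure the spread between only 2 of them per group.

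The RNA-seq libraries held 4636492 to 13968315 estimated counts and the RIP-seq libraries 9865512 to 31586450. Lsm1 itself stood at 63.6 and 71.0 CPM (estimated counts scaled to library size with the TMM factors of edgeR) in Lsm1_KD and at 143 and 147 CPM in Ctrl, a log2 fold change of -1.10 (SE 0.22, adjusted p = 0.012, quasi-likelihood test of edgeR). In the RIP-seq, Lsm1 was at 10838 and 16749 CPM in FLAG Input and at 18.3 and 18.4 CPM in Ctrl Input. The control libraries thus showed no excess of the RNA that their treatment field names. In FLAG IP replicates 1 and 2 Lsm1 was at 5993 and 139288 CPM, the first below both FLAG Inputs and the second far above them. The part of this gap in the FLAG IP results was not tested. FLAG IP replicate 1 stood apart from the other libraries. Its TMM factor was 1.87 against 0.872 to 1.02 in the other 7 RIP-seq libraries, and repeats took 12.7% of its counts. Marker lists were summed as CPM without TMM factors, scaled to the library total alone. A list of 10 cumulus and granulosa markers summed to 87.8 CPM in FLAG IP replicate 1, a value that its TMM factor would lower. In the other 11 libraries that list summed to 11.8 to 23.2 CPM. In the RNA-seq that list summed to 11.8 to 16.2 CPM with Amh, Fshr, Foxl2, Ptx3 and Lhcgr at 0 counts, and the 10 oocyte and zygote markers summed to 9583 to 11638 CPM. The 6 sperm markers summed to 3.15 and 3.11 CPM in Ctrl and 7.55 and 11.4 CPM in Lsm1_KD, with Prm1, Tnp1, Tnp2 and Odf1 at 0, and the part of these markers in the results was not tested.

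Upf1 lies on the minus strand of chromosome 8 (chr8:70331493-70353423, GRCm38.p6), and its 2 RefSeq transcripts differ by 33 coding bases at the end of exon 7 of 24 (chr8:70339982-70340014). The extra bases begin with GT and their number is a multiple of 3, so that the shorter form arises at an upstream 5′ splice site and both forms keep the reading frame. In mammals these forms are known to differ in the regulatory loop of the UPF1 helicase domain. The stretch is shown because the forms can be told apart only by reads that cover it or its junction. Capitals mark the bases present in the longer form alone, and the flanks in lower case are 15 bases on each side, from the RefSeq annotation and genome of GRCm38.p6.
Upf1, longer form: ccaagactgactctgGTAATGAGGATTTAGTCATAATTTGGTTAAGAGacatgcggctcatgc
Upf1, shorter form: ccaagactgactctgacatgcggctcatgc

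Per transcript length, the 9 RNAs spanned a wide range in Ctrl zygotes. Levels between genes are given in TPM, which is corrected for transcript length. Upf3b, which encodes a UPF3 protein that links UPF2 to the exon junction complex, was the most abundant at 202 and 204 TPM. Upf1 followed at 85.1 and 108 TPM, and Smg8, encoding a regulator of the SMG1 kinase, at 76.2 and 88.4 TPM. The ranges of Upf1 and Smg8 overlapped, while Upf3b lay above both. Upf2 reached 46.7 and 42.3 TPM, Smg1 23.9 and 27.1 TPM, and Smg6 23.2 and 23.3 TPM. The means of Smg1 and Smg6 differed by less than the SD of Smg1, whereas Upf2 was above both in each library. Upf3a stood at 18.1 and 15.4 TPM, Smg9 at 10.8 and 2.22 TPM, and Smg5 at 1.02 and 1.14 TPM. Smg9 therefore varied several-fold within the group, and Smg5 rested on only 28 and 16 estimated counts.

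The order was not the same in the Inputs of the RIP-seq, which were made with another library kit, and the change of order between the experiments was not tested. Over the 4 Inputs, Upf1 was highest at 76.6 to 111 TPM and lay above every other member in each library. Upf3a ranged from 40.0 to 59.8 TPM and Upf3b from 35.0 to 58.2 TPM, and these ranges overlapped. Upf2 (18.1 to 34.0 TPM), Smg1 (16.8 to 24.5 TPM), Smg8 (16.0 to 20.5 TPM) and Smg6 (14.6 to 22.9 TPM) also overlapped with one another. Smg9 (4.94 to 6.61 TPM) and Smg5 (3.95 to 5.45 TPM) were lowest, as in the RNA-seq.

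Knockdown of Lsm1 left none of the 9 RNAs past an adjusted p of 0.05. On CPM, Upf1, Upf3a and Upf3b were higher in both Lsm1_KD libraries than in both Ctrl libraries, and Upf2 and Smg1 were lower. Each had an unadjusted p under 0.05 from edgeR. In TPM the groups overlapped for Upf1, at 104 and 151 in Lsm1_KD against 85.1 and 108 in Ctrl. Of the 9 members, 0 were called higher and 0 lower by edgeR, where 6.45% and 4.56% of the 11335 genes and repeats tested were called. Without adjustment, 3 members were higher and 2 lower at p under 0.05 in edgeR, against 1612 and 1463 of the 11335 features. DESeq2 called 0 members higher and 1 lower, Smg1, against 910 and 759 of the 11335 features. On CPM the groups did not overlap for 8 members, with 5 higher and 3 lower in Lsm1_KD, against 29.3% and 28.6% of all features. The median log2 fold change of the 9 was 0.18, against 0.01 over all features. On log2 (TPM + 1) with limma the median over all features moved to -0.23, and of the called features 33.3% were higher in place of 58.6%. The direction of Smg6 turned there, while the other 8 members kept theirs.

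**Figure D1:**
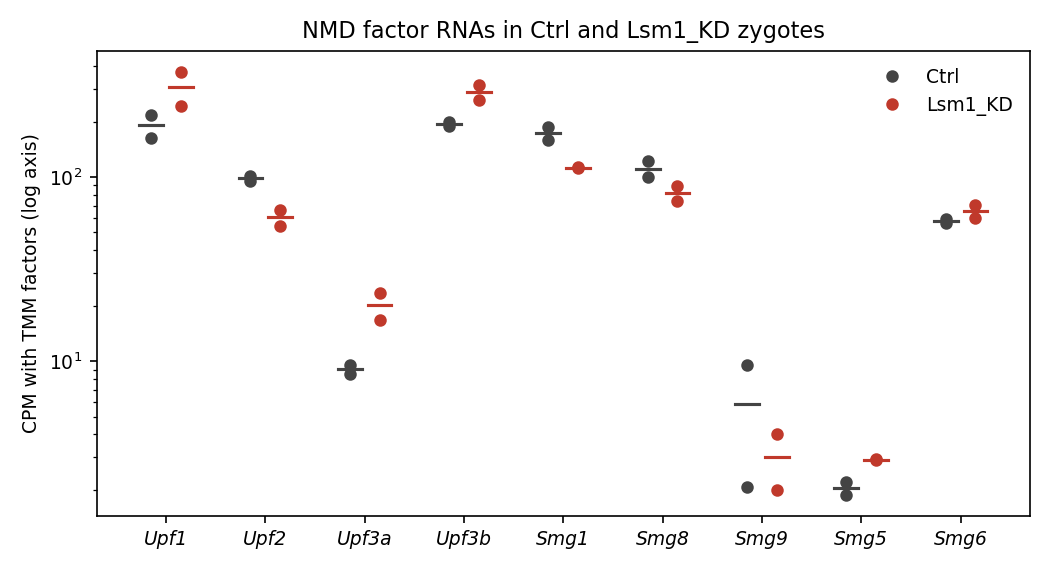
CPM with TMM factors (log axis) of the 9 NMD factor RNAs in the 2 Ctrl and 2 Lsm1_KD libraries, with points for libraries and short lines for means. The groups overlap for Smg9 alone, and the Lsm1_KD points lie higher for Upf1, Upf3a, Upf3b, Smg5 and Smg6 and lower for Upf2, Smg1 and Smg8.

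Among the core factors, Upf1 had 244 and 373 CPM in Lsm1_KD against 164 and 218 CPM in Ctrl. Both Lsm1_KD libraries were higher on CPM, although the distance between them was larger than the gap to Ctrl. The log2 fold change was 0.69 (SE 0.25, unadjusted p = 0.018, adjusted p = 0.099 from edgeR). The adjusted p fell to 0.018 without Lsm1_KD replicate 1, which is the shallowest library, and rose to 0.54 without Lsm1_KD replicate 2. Upf2 (chr2:5951447-6056703) encodes the adaptor that holds UPF1 and a UPF3 protein together. It had 66.3 and 54.3 CPM in Lsm1_KD against 101 and 95.6 CPM in Ctrl. Both Ctrl libraries were clearly above both Lsm1_KD libraries, and the log2 fold change was -0.71 (SE 0.23, adjusted p = 0.078 from edgeR).

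The UPF3 paralogues were both higher in each Lsm1_KD library. Upf3a (chr8:13785055-13798723), with the shortest transcript of the 9 at 1401 bases, was at 16.7 and 23.4 CPM in Lsm1_KD and 9.50 and 8.54 CPM in Ctrl. The log2 fold change of 1.16 was the largest in size among the members (SE 0.40, adjusted p = 0.091 from edgeR). Upf3b, on chromosome X (chrX:37091678-37110471), was at 262 and 317 CPM against 189 and 200 CPM. Neither gene showed overlap between the groups, and the difference of Upf3b was 0.58 on the log2 scale (SE 0.20, adjusted p = 0.088 from edgeR).

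Of the kinase complex that phosphorylates UPF1, the kinase and 1 regulator were lower in Lsm1_KD in each library. Smg1 (chr7:118131308-118244437), the kinase, had 111 and 113 CPM in Lsm1_KD against 159 and 188 CPM in Ctrl. The Lsm1_KD libraries agreed closely, below both Ctrl libraries, with a log2 fold change of -0.63 (SE 0.21, adjusted p = 0.079 from edgeR). Its transcript is the longest of the 9 at 15553 bases, and with the trend of counts on transcript length taken out the difference shrank to -0.25 (adjusted p = 0.47 from edgeR). SMG8 and SMG9 bind SMG1 and restrain its activity. Smg8 (chr11:87077732-87086777) had 89.7 and 74.2 CPM against 100 and 122 CPM, a log2 fold change of -0.44 (SE 0.23, adjusted p = 0.25 from edgeR). Smg9 (chr7:24397517-24422777) had 2.0 and 4.04 CPM against 9.56 and 2.07 CPM, and its groups overlapped. Its log2 fold change of -0.93 (SE 0.82, adjusted p = 0.52 from edgeR) became 0.56 without Ctrl replicate 1, so a single library set its sign.

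SMG5 and SMG6 act on phosphorylated UPF1: SMG6 is the endonuclease that cuts the target mRNA, and SMG5 helps to recruit further decay enzymes. Smg6 (chr11:74925854-75164448) had 60.1 and 70.7 CPM in Lsm1_KD and 56.5 and 59.2 CPM in Ctrl. The groups were adjacent without overlap, and the log2 fold change of 0.18 was within its error (SE 0.24, adjusted p = 0.69 from edgeR). Smg5 (chr3:88336259-88362338) had 2.89 and 2.94 CPM against 1.89 and 2.20 CPM, a log2 fold change of 0.51 (SE 0.89, adjusted p = 0.76 from edgeR). Smg5 rested on 13 to 32 estimated counts per library, and its difference was smaller than its SE.

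**Figure D2:**
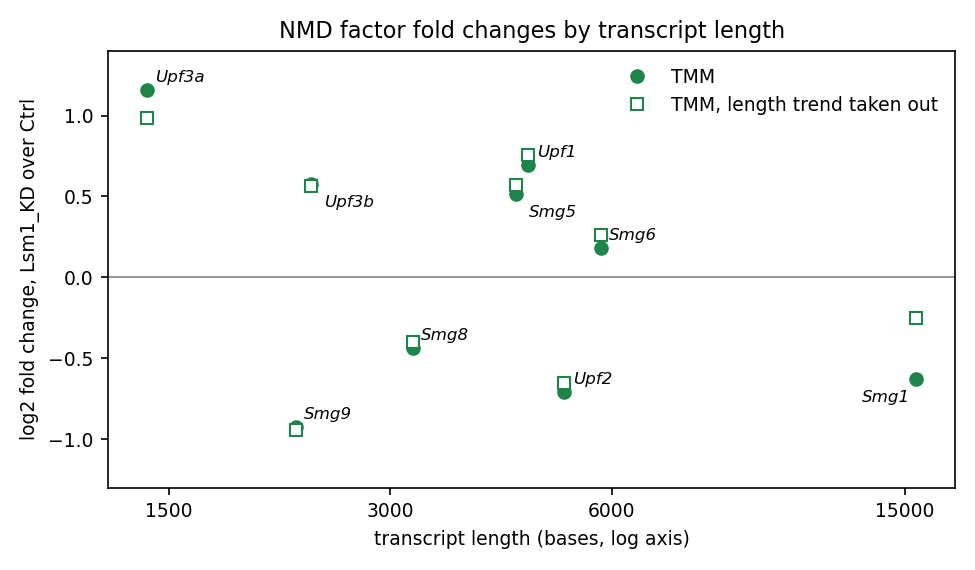
Log2 fold change of each NMD factor RNA in Lsm1_KD over Ctrl against the length of its transcript (log axis), from normalised counts (filled circles) and with the length trend of each library taken out (open squares). The difference of Smg1, the longest transcript, moves from -0.63 to -0.25 and that of Upf3a, the shortest, from 1.16 to 0.98.

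The Upf1 transcripts separated the groups more sharply than the gene total. The longer form took 31.4% and 33.8% of the Upf1 estimated counts in the Ctrl libraries, with 763 of 2431 and 534 of 1581 counts. In both Lsm1_KD libraries it was estimated at less than 1 count, of 1095 and 4054 counts for the gene. Were every Upf1 read able to tell the forms apart, a count of 0 would allow up to 0.274% and 0.0740% (3 counts, counting error only). Only reads over the extra bases or their junction can do so, so the true limits are higher and were not computed. Scaled to library totals, the lower Ctrl library (54.6 CPM) was 84.4-fold above the higher floor of the 2 Lsm1_KD libraries (0.647 CPM, 3 counts per library). That floor makes the same assumption, so the fold is not a lower limit on the difference. The shorter form was at 104 and 151 TPM in Lsm1_KD and at 58.5 and 71.9 TPM in Ctrl, again with no overlap.

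This split was an estimate by Salmon from the reads that cover the 33 bases printed above or their junction, since the forms share the rest of their sequence. With single transcripts as the features, an analysis chosen after seeing the data, the longer form had an adjusted p of 0.089 in edgeR, which called 0 of 14580 transcripts at 0.05 and had 2775 at an unadjusted p under 0.05. In DESeq2 its adjusted p was 5.5e-11, and 887 transcripts were called higher and 948 lower. The shorter form had a log2 fold change of 1.24 in both, with adjusted p of 0.14 from edgeR and 0.0030 from DESeq2. Such switches were not frequent but occurred in both directions: among 2071 genes with more than 1 RefSeq transcript and at least 100 estimated counts in each RNA-seq library, 1.88% had a transcript under 1% in both Lsm1_KD and at least 20% in both Ctrl libraries, and 1.79% the opposite. Shares also varied between replicates. The median over these genes of the largest gap between 2 replicates was 14.0 percentage points, and 37.2% had a gap of at least 20 points.

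In the RIP-seq Inputs, the longer form took 10.7% and 12.1% of Upf1 in Ctrl and 8.76% and 8.08% in FLAG. These shares lay between those of the Ctrl and the Lsm1_KD zygotes of the RNA-seq and were close within each group. In the IPs they were 25.2% and 1.08% in Ctrl and 26.4% and 4.70% in FLAG. The replicates of an IP group thus differed by more than 20 percentage points, and no share of the longer form in the pull-downs could be told from that of the lysates.

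**Figure D3:**
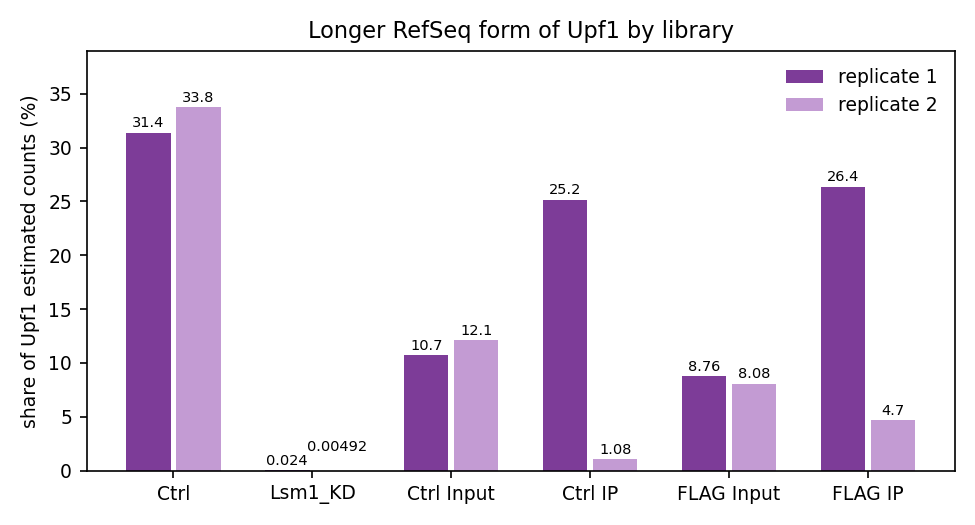
Share of the Upf1 estimated counts assigned to the longer RefSeq form (bars from 0, in percent) in replicates 1 and 2 of the 6 groups. The Ctrl RNA-seq libraries are at 31.4% and 33.8%, both Lsm1_KD libraries are near 0, and the IP replicates lie far apart.

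Partners of the pathway were read from lists of other NMD-linked factors, the exon junction complex and transcripts known as NMD targets in mammalian cells. These lists were chosen with earlier results of these data known. The exon junction complex is left on spliced mRNA and marks exon junctions for the pathway. It had 3 of 5 genes higher and 0 lower in Lsm1_KD, where 6.45% and 4.56% of all features tested were called. Its median log2 fold change was 1.67, against 0.01 over all features. Magoh, a core subunit, had 1051 and 1176 CPM in Lsm1_KD against 324 and 354 CPM in Ctrl. It rose by 1.72 on the log2 scale (SE 0.19, adjusted p = 0.0012 from edgeR) and passed in each of 13 alternative settings. The log2 fold changes there were 0.77 to 1.78, lowest where the length trend was taken out. The 13 include a crossed replicate block, chosen after seeing the data, which blocks Lsm1_KD replicate 1 with Ctrl replicate 2 and the reverse. Magoh, Magohb, Rbm8a and Ddit3 all passed in that setting.

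Magohb, a near-identical paralogue of Magoh, had 81.7 and 121 CPM against 45.7 and 32.8 CPM and rose by 1.37 (adjusted p = 0.015 from edgeR). Reads shared by Magoh and Magohb could be split between them by the quantification, so their separate values are uncertain. Rbm8a, whose protein pairs with MAGOH, had 16.2 and 27.8 CPM against 7.61 and 6.20 CPM and rose by 1.67 (adjusted p = 0.035 from edgeR). It passed in 8 of 13 alternatives and Magohb in 10 of 13. Without Lsm1_KD replicate 2 neither passed (edgeR adjusted p = 0.087 for Magohb and 0.26 for Rbm8a), nor did Rbm8a without Ctrl replicate 2 (adjusted p = 0.086). With the length trend taken out Magohb was at 0.56 and did not pass (adjusted p = 0.18 from edgeR), while Rbm8a stayed at 1.67. The helicase Eif4a3 and Casc3, the remaining subunits, did not pass, with log2 fold changes of 0.07 and 1.70 (adjusted p = 0.90 and 0.35 from edgeR).

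Of 15 other NMD-linked factors, such as the release factor Etf1 and the helicase Dhx34, 14 were tested and 0 were called in either direction. Over all features 6.45% were called higher and 4.56% lower. The log2 fold changes of these 14 factors ran from -1.04 to 1.32 with a median of -0.05, and the smallest adjusted p was 0.073 from edgeR. Of 12 transcripts listed as NMD targets, 11 matched a symbol in the quantification, and Snhg12 and Tbl2 had no counts in the RNA-seq. Of the 7 tested, 1 was higher and 0 were lower, against the same 6.45% and 4.56%. Ddit3, a stress-induced transcription factor whose mRNA is a known target, had 12.9 and 16.4 CPM in Lsm1_KD against 2.49 and 5.37 CPM in Ctrl. It rose by 1.93 on the log2 scale (SE 0.54, adjusted p = 0.046 from edgeR), and passed in 9 of 13 alternatives, but not without Lsm1_KD replicate 2 (adjusted p = 0.20) or Ctrl replicate 1 (adjusted p = 0.12). Ddit3 also did not pass with the replicate block (adjusted p = 0.065 from edgeR) or with the length trend taken out, where it was at 1.20 (adjusted p = 0.20). The 7 tested had a median of 1.02, and 4 of them (Snhg1, Zfas1, Upp1 and Cdkn1a, named after their values were seen) averaged 0.606 to 3.62 CPM in either group.

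In the pull-down of FLAG-tagged LSM1, the RNAs of the NMD factors mostly stood at or below their level in the lysate. On CPM, Smg5 was higher in both FLAG IP libraries than in both FLAG Inputs. Upf1, Upf3a, Smg6, Smg8 and Smg9 were lower in both. In TPM the groups overlapped for Smg6, at 19.4 and 9.19 in FLAG IP against 18.3 and 14.6 in FLAG Input. Smg9 overlapped as well in TPM, at 7.43 and 2.29 against 5.18 and 4.94. By edgeR, 1 of 9 members was called higher and 0 lower, where 21.0% and 5.48% of 18972 genes and repeats were called. On CPM, no overlap between groups was seen for 1 member higher and 5 lower, against 42.1% and 30.2% of all features. The median log2 ratio of the members was -0.36, against 0.49 over all features. The split of the calls depended on the scale, with 79.3% of called features higher on normalised counts, 53.9% with the length trend taken out, and 17.3% on log2 (TPM + 1).

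Smg5 had 57.4 and 31.7 CPM in FLAG IP and 17.4 and 19.1 CPM in FLAG Input. Both IP libraries were higher, with the higher value in FLAG IP replicate 1, the library with the most repeats and cumulus markers, whose part in the result was not tested. The log2 ratio was 1.29 (SE 0.35, adjusted p = 0.024 from edgeR). Without that library it was 0.76 (adjusted p = 0.059), with the length trend taken out it was 0.67, and without either FLAG Input library it did not pass (adjusted p = 0.17 and 0.12). Over 12 alternatives the adjusted p of Smg5 ranged from 8.6e-05 to 0.20, passing in 6. In the Ctrl pull-down Smg5 was also higher in both IP libraries, at 26.6 and 21.2 CPM against 15.9 and 18.5 CPM in the Input, with a log2 ratio of 0.48 (SE 0.35, adjusted p = 0.57 from edgeR). The FLAG ratio exceeded the Ctrl ratio by 0.81 (SE 0.49, adjusted p = 0.79 from edgeR), so Smg5 was not shown to differ from the bead background.

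Upf3a had 14.8 and 33.6 CPM in FLAG IP against 51.7 and 51.4 CPM in FLAG Input. The IP libraries lay well apart and both below the Inputs, with a log2 ratio of -1.09 (SE 0.39, adjusted p = 0.054 from edgeR). Upf3a passed as lower in 9 of 12 alternatives, with adjusted p from 4.6e-05 to 0.20. Smg8 followed the same pattern, with 16.6 and 33.2 CPM against 48.8 and 47.3 CPM and a log2 ratio of -0.95 (SE 0.38, adjusted p = 0.078 from edgeR), and passed in 4 of 12. Without FLAG IP replicate 1 the ratios were -0.65 for Upf3a and -0.57 for Smg8, and without FLAG IP replicate 2 they were -1.80 and -1.53. Per the methods, an IP and its Input come from one lysate. The replicate number was also used as a block, which takes that pairing into account only if same-numbered libraries share a lysate. Both were then called lower (adjusted p = 0.016 for Upf3a and 0.039 for Smg8 from edgeR), and Smg5 stayed higher (adjusted p = 0.0099).

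Upf1 had 72.4 and 226 CPM in FLAG IP against 308 and 330 CPM in FLAG Input. Its log2 ratio of -1.10 (SE 0.58, adjusted p = 0.15 from edgeR) rested largely on FLAG IP replicate 1, without which it was -0.53. In the Ctrl pull-down Upf1 was lower in the IP as well, at 177 and 244 CPM against 322 and 391 CPM, with a log2 ratio of -0.76 (SE 0.58, adjusted p = 0.59 from edgeR). Upf3b had 52.1 and 172 CPM in FLAG IP against 62.8 and 75.1 CPM in FLAG Input. On CPM 1 IP library was below and 1 above the Inputs, and the log2 ratio was 0.70 (SE 0.50, adjusted p = 0.27 from edgeR). In TPM both IP libraries of Upf3b were above, at 46.7 and 56.3 against 35.0 and 35.9. Without FLAG IP replicate 1 the log2 ratio of Upf3b was 1.28, and without FLAG IP replicate 2 it was -0.40.

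For the other members the FLAG IP and Input overlapped or lay close together. Smg1 had 111 and 366 CPM in the IP against 248 and 271 CPM in the Input, and Upf2 had 76.9 and 128 CPM against 142 and 94.8 CPM. Smg6 had 56.2 and 73.1 CPM against 85.8 and 79.6 CPM, and Smg9 7.86 and 6.63 CPM against 8.80 and 9.81 CPM. Their log2 ratios were between -0.36 and -0.12, with adjusted p of 0.43 to 0.87 from edgeR. Without FLAG IP replicate 2, the log2 ratios were 1.66 for Smg5, -2.14 for Upf1, -1.80 for Upf3a, -1.53 for Smg8 and -1.23 for Smg1. The median of the members was then -0.62, against 1.09 over all features. The lone IP library is assumed there to vary like the other groups.

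In the control pull-down, 0 of 9 members were called higher and 0 lower by edgeR, where 2.12% and 0.00527% of all features were called, and 0 members reached an unadjusted p under 0.05. Of the called features 99.8% were higher on normalised counts, but 60.3% on log2 (TPM + 1). The members' log2 ratios there ran from -0.76 to 0.48, with 1 member above (Smg5) and 2 below (Upf1 and Upf3a) without overlap of the groups, against 33.4% and 27.2% of all features. Upf2 was at 101 and 127 CPM in Ctrl IP and 85.0 and 108 CPM in Ctrl Input, and Upf3b at 90.0 and 91.0 CPM against 72.7 and 99.3 CPM. Smg1 was at 188 and 277 CPM against 244 and 302 CPM, and Smg8 at 58.1 and 38.0 CPM against 58.6 and 47.8 CPM. Upf3a was at 42.9 and 39.4 CPM against 45.6 and 56.9 CPM. Smg6 (61.5 and 81.9 CPM against 78.4 and 103 CPM) and Smg9 (7.88 and 13.2 CPM against 11.4 and 10.7 CPM) overlapped.

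The FLAG ratio was then set against the Ctrl ratio, which takes binding to the beads into account. None of the 9 members passed, with 0.0% of the 18972 features called in either direction by edgeR (757 positive and 239 negative without adjustment at p under 0.05), and 1 higher and 1 lower in DESeq2. The difference of the log2 ratios was -0.80 for Smg8 (SE 0.54), -0.78 for Upf3a (SE 0.54) and 0.62 for Upf3b (SE 0.70), each with an adjusted p of 0.79 to 0.81 from edgeR. For Upf1 it was -0.34 (SE 0.81). The median over the 9 was -0.30, against 0.02 over all features.

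**Figure D4:**
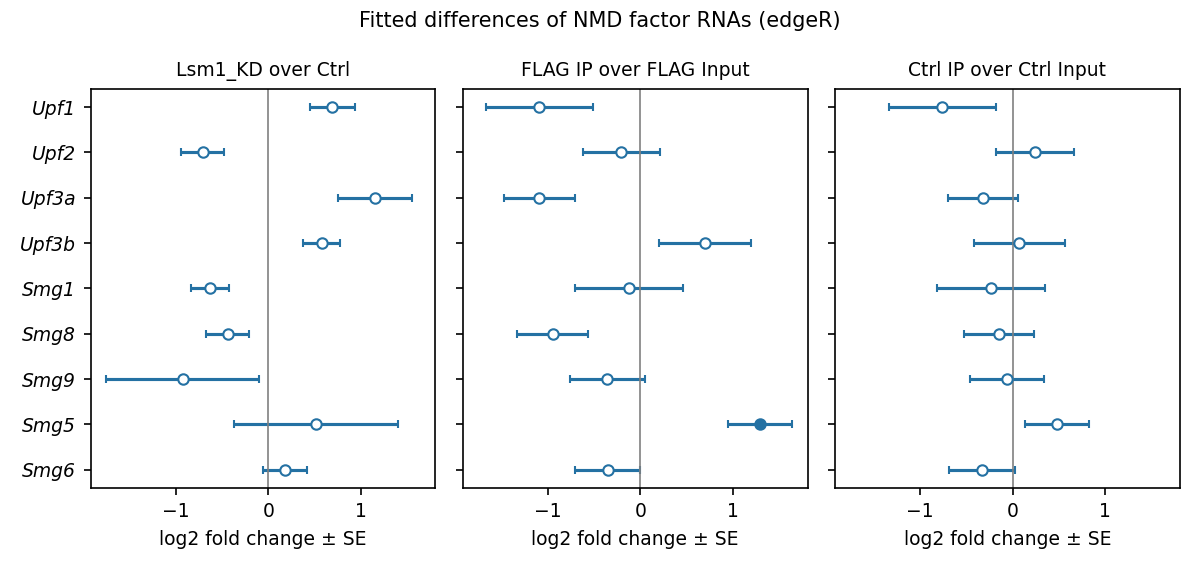
Log2 fold changes with their SE from edgeR for the 9 NMD factor RNAs in Lsm1_KD over Ctrl, FLAG IP over FLAG Input and Ctrl IP over Ctrl Input, with filled circles for an adjusted p under 0.05. Smg5 in the FLAG pull-down, at 1.29, is the only filled point, and Upf1, Upf3a and Smg6 lie above 0 in the knockdown and below 0 in both pull-downs, with Smg6 below 0 in the knockdown on log2 (TPM + 1).

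The genes whose levels ran most like Upf1 over the 12 libraries were Znhit2, Pacs1 and Prpf6. Likeness was the root mean square difference of log2 (TPM + 1), each gene centred on its mean, among 8438 genes of at least 5 TPM on average, and was 0.19 for each of the 3. For Upf3a, the member with the largest difference in Lsm1_KD, they were Mrgbp (0.14), Skp1 (0.14) and Ccdc97 (0.16). The 12 points share library kits and depth within each experiment, so these values describe the profiles and carry no test.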

How the data were processed

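Reads were trimmed by the authors, and Salmon assigned them to mm10 RefSeq transcripts and to Repbase repeats. The labels name Trimmomatic, FastQC and Salmon without versions, with the kits KAPA Stranded with RiboErase for RNA-seq and SMARTer Stranded v2 for RIP-seq. The methods of the paper instead name Cutadapt for trimming and give a version of Salmon. For RNA-seq they describe amplified cDNA from a few embryos and a KAPA HyperPlus kit. Which applies to these libraries is not settled by either. The deposited files hold estimated counts and TPM per transcript, as the authors made them. Of 37366 transcripts, 37072 matched a gene of the GRCm38.p6 RefSeq table, and 294 stayed single features. Estimated counts, of which 55.5% of the nonzero values were not whole, were summed by gene symbol and rounded.

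Groups were compared by quasi-likelihood in edgeR 4.0.16 under R 4.3.3, with TMM factors, filterByExpr and Benjamini-Hochberg adjustment over all features tested, called at an adjusted p under 0.05. RNA-seq (4 libraries) and RIP-seq (8 libraries) were fitted separately. Alternatives were DESeq2 1.42.0 and its size factors, no filter, limma 3.58.1 on log2 (TPM + 1) or log2 (TPM + 0.1), repeats and Lsm1 left out, a length trend (lowess, span 0.3) taken out, a replicate block, and each library left out. For RNA-seq, a crossed replicate block was added after seeing the data. On simulated data with RNA-seq spread, 16 of 100 genes changed 2-fold and 78 of 100 changed 4-fold were recovered; with RIP-seq spread these were 1 and 38 of 100 for FLAG IP over FLAG Input.

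All 9 members were named, and of each other list the genes past an adjusted p of 0.05 in Lsm1_KD over Ctrl, at most 4; other genes were named by counts of 5 or fewer. The members and lists were chosen with earlier results of these data known. Per the methods an IP and its Input share a lysate. Deviations of same-numbered Input and IP libraries from their group means correlated at 0.19 in Ctrl and 0.20 in FLAG over 5000 features. Between Ctrl and FLAG, where no lysate is shared, same-numbered libraries correlated at -0.038 to 0.33. The values therefore do not show that replicate numbers mark lysates. Floors and intervals cover counting error only. The result of 1 gene of the other lists is not reported here.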

Additional observations from a re-analysis of the deposited data

How the results depend on the processing

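With 2 libraries per group, spread is poorly known, and few of the simulated 2-fold changes were recovered. In Lsm1_KD over Ctrl, the members called higher were 1 with no filter on low counts and 0 to 1 with a library left out, and the members called lower were 1 in DESeq2, against 0 and 0. RNA-seq replicate numbers only name libraries: deviations of same-numbered libraries correlated at -0.41. The replicate block called 0 members and moved all features from 731 higher and 517 lower to 426 and 217. The crossed replicate block, chosen after seeing the data, called 3 members higher and 2 lower, and 1392 and 1224 features. That block also follows depth. It joins the shallower libraries of the groups (4636492 and 7391089 estimated counts) and the deeper ones (11095477 and 13968315). The part of depth in its calls was not tested. No filter gave 1033 and 924 features, limma on log2 (TPM + 1) 424 and 848, log2 (TPM + 0.1) 378 and 736, and leaving a library out 472 to 738 and 191 to 520. Smg6 turned to -0.11 and -0.12 on the TPM scales, and Smg9 ran from -1.64 to 0.56 with a library left out. The TPM scales change both the test and the unit, and the cause was not tested.

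In FLAG IP over FLAG Input, against 1 member higher and 0 lower, 0 were higher on both TPM scales and with the length trend taken out, and 0 to 1 with a library left out. Members called lower were 1 with DESeq2 size factors, in DESeq2, and with repeats and Lsm1 left out, 2 with no filter, on both TPM scales, with the length trend taken out and with the replicate block, and 0 to 4 with a library left out. Leaving out a library moved Upf2 from -0.62 to 0.11, Upf3b from -0.40 to 1.28 and Smg1 from -1.23 to 0.46. Over all features, against 3975 higher and 1040 lower, the counts were 5404 and 2205 in DESeq2, 4929 and 1775 with no filter, 489 and 2331 or 1385 and 2620 on the TPM scales, 3182 and 2719 with the length trend taken out, 4157 and 1894 with the replicate block, and 472 to 7463 and 5 to 5927 with a library left out.

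In Ctrl IP over Ctrl Input, 1 member (Upf1) was called lower on log2 (TPM + 0.1), against 0. Upf2 turned to -0.29 and -0.30 on the TPM scales and -0.064 with the length trend taken out, Upf3b to -0.45, -0.46 and -0.37, and Smg5 to -0.062 and -0.073 on the TPM scales. With a library left out Upf3b ran from -0.12 to 0.32, Smg1 from -0.55 to 0.020, Smg8 from -0.49 to 0.12 and Smg9 from -0.49 to 0.26. Over all features, against 403 higher and 1 lower, DESeq2 called 1313 and 5, no filter 1597 and 17, the TPM scales 94 and 62 or 177 and 268, repeats and Lsm1 left out 293 and 0, the length trend 246 and 2, the replicate block 1436 and 18, and leaving a library out 111 to 401 and 0 to 4.

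In the FLAG ratio against the Ctrl ratio, members called were 0 to 1 higher and 0 to 4 lower with a library left out, against 0 and 0. Over all features, against 0 and 0, DESeq2 called 1 and 1, no filter 17 and 4, the length trend 0 and 1, the replicate block 4 and 6, and leaving a library out 0 to 1725 and 0 to 4626, the highest without FLAG IP replicate 2. On the TPM scales Upf1 turned to 0.077 and 0.076, Upf2 to 0.15 and 0.15, Smg6 to 0.56 and 0.59, and Smg9 to 0.34 and 0.37. Smg1 turned to -0.11 with the length trend taken out and -0.11 with the replicate block, and Smg6 to 0.013 with DESeq2 size factors, 0.013 in DESeq2 and 0.00081 with repeats and Lsm1 left out. With a library left out Upf1 ran from -1.39 to 0.27, Upf3b from -0.49 to 1.25, Smg1 from -1.01 to 0.74, Smg6 from -0.26 to 0.16 and Smg9 from -0.68 to 0.076. A left-out library leaves its group with 1, which is assumed to vary like the others. The replicate block changed no other call of a member.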
